A study of Glycine max with 2 samples.

Results

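Glyma.02G117500 and Glyma.02G130700 are the 2 genes on soybean chromosome 2 that the deposited Gene Ontology (GO) table placed under phosphoenolpyruvate carboxylase activity among the differentially methylated genes (DMGs), and 485 DMGs were listed in all. A gene became a DMG when a differentially methylated region (DMR) overlapped it, so these genes were chosen by the measured methylation levels of both lines, and their difference is given below as a description, without a test. Each gene carried 1 DMR. Both DMRs lay over exon and intron, without a promoter or UTR, and both had the higher methylation level in the male-sterile line.

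Phosphoenolpyruvate carboxylase joins bicarbonate to phosphoenolpyruvate and so makes oxaloacetate, which can be passed on to malate, to the tricarboxylic acid (TCA) cycle or to amino acids. In C4 and CAM plants the enzyme makes the first fixation of carbon dioxide, whereas in C3 plants such as soybean it mainly refills the TCA cycle, and in legume nodules it helps to supply malate to the bacteroids. The KEGG table gave both genes the same ortholog, K01595 (phosphoenolpyruvate carboxylase), and in the gene annotation of the study both are called phosphoenolpyruvate carboxylase 4. In Arabidopsis the gene of that name codes for the bacterial-type enzyme, which lacks the N-terminal phosphorylation site of the plant-type enzymes. Plant cytosines are methylated in the CG, CHG and CHH contexts, where H is A, C or T, and the tables used here did not separate these contexts.

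Whole-genome bisulfite sequencing was done on flower bud DNA, with 1 library of the cytoplasmic male sterility (CMS) line NJCMS5A and 1 of its maintainer line NJCMS5B. NJCMS5B is Wandou 28, the recurrent parent in the backcrosses that made NJCMS5A from the donor NJCMS1A, and it is fertile. Plants of both lines were grown at 1 station, and buds of several sizes, labelled as full-bloom stage, were pooled within a line, so a difference in the makeup of the buds and a difference within cells cannot be told apart. Unmethylated cytosines are converted by bisulfite, and a region's methylation level is given as the percentage of cytosine calls that stayed cytosine. With 1 library per line, no difference has a replicate check, and each interval below is a 95% interval for counting error alone, from calls that are not independent where they share a read.

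The table listed 3527 DMRs, of which 311 lay on the 20 chromosomes and 3216 on unplaced scaffolds. Of all listed DMRs, 44.2% had the higher level in NJCMS5A, and on the chromosomes the share was 29.9%. Every listed DMR had a difference of at least 10 percentage points, a level at least 2 times as high in one library as in the other, a mean depth of at least 5 calls per site in both libraries and at least 10 cytosine sites. Windows outside the listed DMRs were not analysed here, so only called regions stand around the 2 genes.

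The DMR of Glyma.02G117500 spanned 996 bp at chr2:11463638-11464633 and rested on 51 cytosine sites. In NJCMS5A, 113 of 617 calls were methylated, a level of 18.3% (Wilson interval 15.5 to 21.6). In NJCMS5B, 26 of 351 calls were methylated, a level of 7.41% (5.10 to 10.6). The level was thus 2.47 times as high in NJCMS5A (1.65 to 3.71), or higher by 10.9 percentage points (Newcombe interval 6.60 to 14.9). When the calls were scaled down to 1 per site, 17.6% stood against 7.84% and the interval of the difference ran from -3.57 to 23.3 percentage points. At this number of sites the difference then no longer stood clear of counting error. Scaling keeps the levels apart from rounding, so the wider interval reflects the smaller number of calls.

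The DMR of Glyma.02G130700 spanned 1191 bp at chr2:13481304-13482494 and held 170 cytosine sites. In NJCMS5A, 455 of 1793 calls were methylated, a level of 25.4% (23.4 to 27.4), and in NJCMS5B 208 of 1677 calls, a level of 12.4% (10.9 to 14.1). This level was 2.05 times as high in NJCMS5A (1.76 to 2.38), or higher by 13.0 percentage points (10.4 to 15.5). With calls scaled to 1 per site, the levels were 25.3% and 12.4%, and the interval of the difference was 4.64 to 21.1 percentage points. The DMR was listed for this same difference, so an interval above 0 is no support for it. The 2 genes therefore had the same direction, and the better covered one had the narrower interval.

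**Figure D1:**
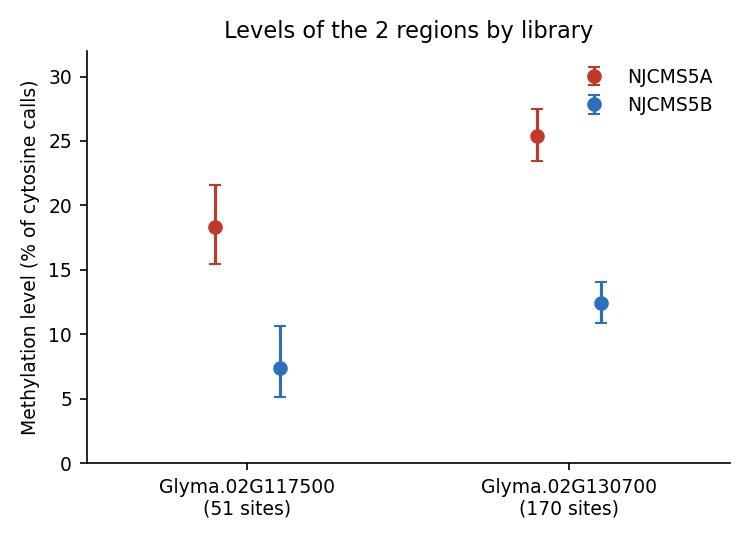
Methylation level, in percent of cytosine calls, of the DMRs of Glyma.02G117500 (51 sites) and Glyma.02G130700 (170 sites) in the NJCMS5A library (red) and the NJCMS5B library (blue). Points are the levels and bars the 95% Wilson intervals, and the intervals of the libraries do not overlap in either gene (15.5 to 21.6 against 5.10 to 10.6, and 23.4 to 27.4 against 10.9 to 14.1). Both DMRs were listed for their difference between the libraries, so this separation is no further support for it.

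Glyma.02G130700 had the higher level of the 2 genes in both libraries. The level of Glyma.02G130700 was above that of Glyma.02G117500 by 7.06 percentage points in NJCMS5A (3.27 to 10.6) and by 5.0 in NJCMS5B (1.44 to 7.84). The difference between the lines was 2.07 percentage points larger in Glyma.02G130700, with an interval of -2.67 to 7.07 that includes 0. The ratio of levels was 1.21 times as large in Glyma.02G117500, with an interval of 0.784 to 1.86 that includes 1. At this depth it was therefore not detectable whether one gene differed more between the lines than the other.

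Fewer sites per 100 bp were listed for Glyma.02G117500, 5.12 against 14.3 for Glyma.02G130700. Over all listed DMRs this density reached 140 per 100 bp, so it is not a plain density of cytosines in the DNA. How the listed sites of a DMR were chosen, and what share of its cytosines they are, is not given in the sources used here. Of the 311 chromosome DMRs, 262 had more sites per 100 bp than Glyma.02G117500 and 189 had more than Glyma.02G130700, and the median was 17.4. The DMR of Glyma.02G117500 was close to the median length of 986 bp.

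Among the chromosome DMRs, both genes stood high in NJCMS5A and below the median in NJCMS5B. The calling itself favours such ranks, as both were listed as higher in NJCMS5A and most chromosome DMRs as lower. The median level of the 311 DMRs was 9.32% in NJCMS5A, and 14 DMRs had a higher level than Glyma.02G130700 there and 50 a higher level than Glyma.02G117500. In NJCMS5B the median was 15.7%, and 201 and 263 DMRs lay above the 2 genes. Within the 93 chromosome DMRs that were higher in NJCMS5A, Glyma.02G117500 was near the middle, as the medians of these DMRs were 18.6% and 7.33%, and Glyma.02G130700 was in the upper part in both libraries. With 2.05, Glyma.02G130700 had one of the smaller ratios: 84 of these 93 DMRs had a larger one, and the lowest was 2.01. With 10.9 percentage points, Glyma.02G117500 had a difference a little under the median of 11.1.

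**Figure D2:**
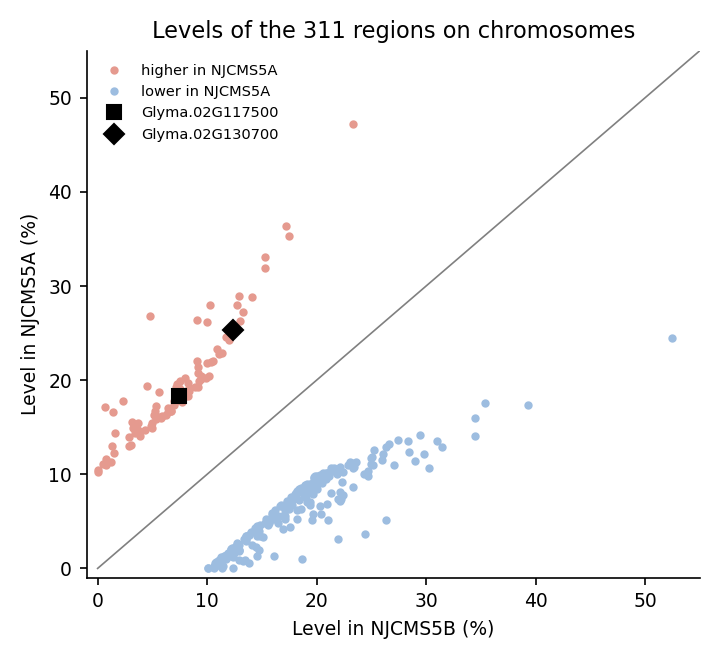
Methylation level in NJCMS5A (y axis, percent) against that in NJCMS5B (x axis, percent) of the 311 chromosome DMRs, 93 of them higher in NJCMS5A (pale red) and the rest lower (pale blue), with the 2 genes in black and the line of equal levels in grey. The empty band around the line holds no DMR because every listed DMR differs by at least 10 percentage points and 2 times, and both genes sit close to the edge of that band.

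The depth of the libraries differed between the genes. In Glyma.02G130700 a site was read a mean of 10.5 times in NJCMS5A and 9.86 times in NJCMS5B, a ratio of 1.07, close to the median of 1.02 over the chromosome DMRs. In Glyma.02G117500 the depth was 12.1 in NJCMS5A and 6.88 in NJCMS5B, a ratio of 1.76 that only 10 of the 311 DMRs exceeded. On chromosome 2 the other 13 DMRs had ratios of 0.730 to 1.41. Of the 11 chromosome DMRs with a ratio of 1.76 or more, that of Glyma.02G117500 included, 3 were higher in NJCMS5A (27.3%), against 29.9% of all chromosome DMRs. Of the 9 in which the depth of NJCMS5B exceeded that of NJCMS5A by as much, all 9 were higher in NJCMS5A. These classes were set after the values were seen, and the part of depth in the difference of Glyma.02G117500 was not tested.

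**Figure D3:**
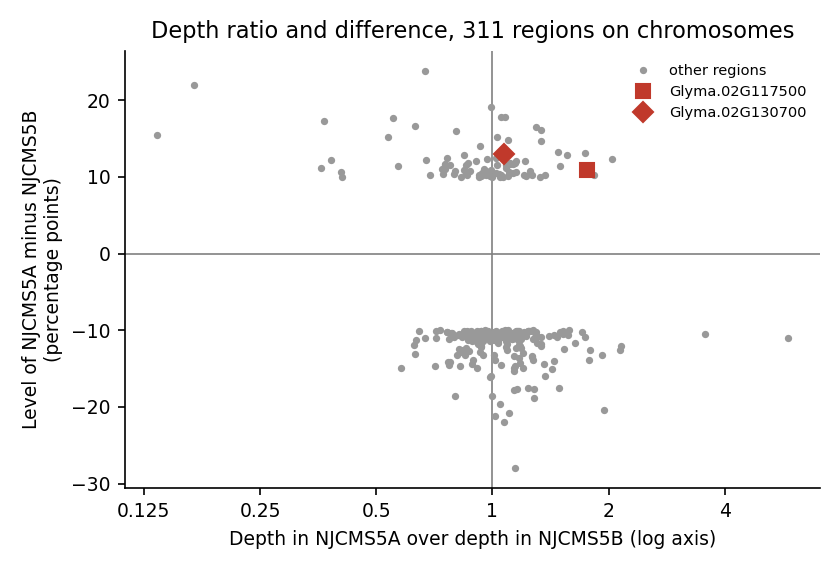
Level of NJCMS5A minus that of NJCMS5B (y axis, percentage points) against the depth of NJCMS5A divided by that of NJCMS5B (x axis, log scale) for the 311 chromosome DMRs in grey and the 2 genes in red. Glyma.02G117500 (square) sits at a ratio of 1.76, to the right of all but 10 DMRs, and Glyma.02G130700 (diamond) at 1.07, near the median of 1.02.

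A DMR over exon and intron alone, as in both genes, was found in 13 of the chromosome DMRs, and 4 of them were higher in NJCMS5A (30.8%). Besides the 2 genes, these were Glyma.04G136500 and Glyma.20G014700. The level of Glyma.02G130700 in NJCMS5A was the highest of the 13, and Glyma.02G117500 had the fewest sites and the lowest depth in NJCMS5B of the 13. In the other 11 DMRs the level was 2.95 to 19.4% in NJCMS5A, with a median of 9.32%, and 4.53 to 30.3% in NJCMS5B, with a median of 17.8%. These 11 held 135 to 930 sites, so the DMR of Glyma.02G117500 was the thinnest of its kind.

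Along chromosome 2, 15 DMRs were listed, and 4 of them, or 26.7% (10.9 to 52.0), were higher in NJCMS5A. The 2 genes are among these 4, and without them 2 of 13 were higher. The 2 DMRs were direct neighbours in the list, 2016670 bp apart. The next DMR before Glyma.02G117500, 120874 bp away at chr2:11342162-11342763, was also higher in NJCMS5A: 16.1% (14.6 to 17.6) stood against 5.77% (4.81 to 6.91). It overlapped the promoter, 5′UTR, exon and intron of Glyma.02G116400, which the GO table placed under carbohydrate transmembrane transport. The same DMR was also listed for a 5′UTR of Glyma.12G126900, whose name belongs to chromosome 12.

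After Glyma.02G130700 the next DMR came only 4407601 bp later, at chr2:17890096-17891080. It overlapped no listed gene, rested on 17 sites and went the other way: NJCMS5B had the higher level, 14.5% (9.58 to 21.3), and NJCMS5A had 2.33% (0.794 to 6.61). The fourth higher DMR, with no listed gene either, lay before these at chr2:4548502-4549391, with 17.8% in NJCMS5A and 6.96% in NJCMS5B. All 11 DMRs of the chromosome outside these 4 were lower in NJCMS5A, with levels of 0.0506 to 9.44% there and 10.1 to 21.0% in NJCMS5B. Hence 3 listed DMRs in a row were higher in NJCMS5A, and 2 of these are the DMRs of the chosen genes. The listed DMRs on either side of the 3 were lower. Windows between the listed DMRs were not analysed, so no continuous block is read from this order.

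**Figure D4:**
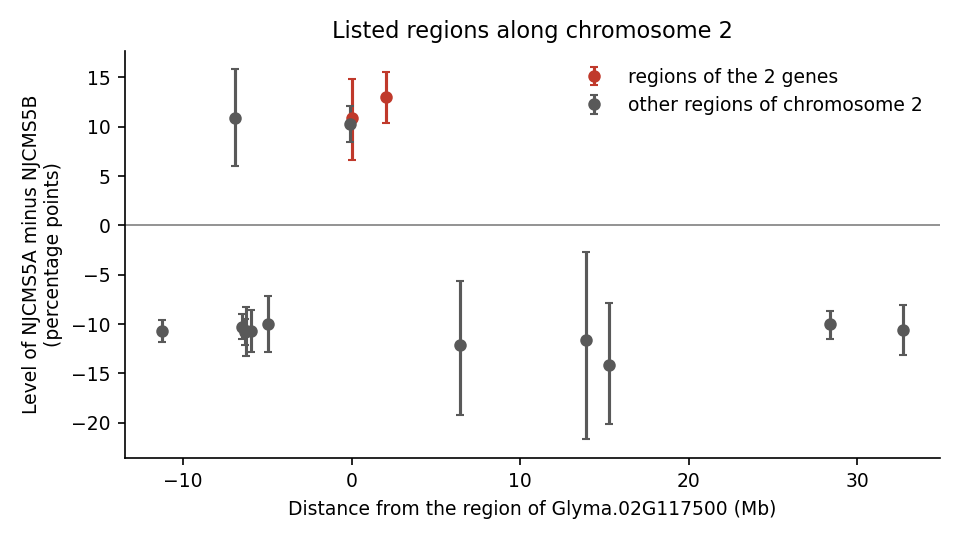
Level of NJCMS5A minus that of NJCMS5B (y axis, percentage points, with 95% Newcombe intervals) of the 15 DMRs of chromosome 2 by their distance from the DMR of Glyma.02G117500 (x axis, Mb), with the 2 genes in red. The 4 DMRs above 0 include both genes and the DMR just before them, and the other 11 are below 0.

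The 2 genes were annotated alike. Each stood under the same 19 GO terms, and in 7 of these they were the only DMGs: phosphoenolpyruvate carboxylase activity (2 of 20 background genes), carbon fixation (2 of 25), phosphoenolpyruvate carboxykinase activity (2 of 34), tricarboxylic acid cycle (2 of 40), aerobic respiration (2 of 46), carboxy-lyase activity (2 of 169) and carbon-carbon lyase activity (2 of 288). Phosphoenolpyruvate carboxykinase is another enzyme, which turns oxaloacetate into phosphoenolpyruvate and carbon dioxide. The remaining 18 background genes of phosphoenolpyruvate carboxylase activity were not DMGs. Over the whole background, 334 of 38033 genes were DMGs (0.878%). As the term was used to choose the genes, these counts are descriptions and were not tested. The KEGG table placed both genes in 5 pathways: pyruvate metabolism, carbon metabolism, carbon fixation in photosynthetic organisms, carbon fixation pathways in prokaryotes and methane metabolism.

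Few other DMGs were listed for these routes and for glycolysis, which holds neither of the 2 genes. The GO terms of phosphoenolpyruvate carboxylase, phosphoenolpyruvate carboxykinase, carbon fixation and the TCA cycle, and the KEGG pathways of pyruvate, carbon metabolism, photosynthetic carbon fixation and glycolysis, held 4 further DMGs, while the TCA pathway of KEGG was not among the listed pathways. Of these 4, 3 had only lower DMRs in NJCMS5A, 1 had DMRs of both directions and 0 had only higher ones. Over all DMGs, 281 of 485 had only lower DMRs and 204 (42.1%) had a higher one. Of the 141 DMGs with a chromosome DMR, 110 had only lower ones and 31 (22.0%) a higher one. The DMRs of the 4 genes all lay on scaffolds, and none was on a chromosome, so the chromosome share is no background for them. A share over DMGs on scaffolds alone was not computed. With 4 genes, nothing particular to these routes is read from the count.

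Glyma.U013100 and Glyma.U013200 share pyruvate metabolism with the 2 genes, under the ortholog K01649 (2-isopropylmalate synthase, the enzyme that begins leucine synthesis). Glyma.U013100 had 2.06% (1.61 to 2.63) in NJCMS5A against 16.5% (15.3 to 17.8) in NJCMS5B in its promoter, and 10.98% (9.79 to 12.3) against 24.2% (22.2 to 26.4) over exon and 3′UTR. Glyma.U013200 had both directions: its intron DMR was higher in NJCMS5A, with 12.5% (11.5 to 13.7) against 1.79% (1.40 to 2.28), and the DMR over exon, intron and 3′UTR was lower, with 3.04% (2.73 to 3.39) against 18.8% (17.9 to 19.6). Of the 6 DMRs of the 4 other pathway genes, this intron DMR was the only one with the direction of the 2 carboxylase genes. Among all listed DMRs, 44.2% were higher in NJCMS5A, and the share on scaffolds alone was not computed.

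Glyma.19G232600 shares carbon metabolism with the 2 genes, under K00831 (phosphoserine aminotransferase, of serine synthesis). Its DMR had 11.9% (10.6 to 13.2) in NJCMS5B and 0.167% (0.0650 to 0.429) in NJCMS5A, but it lay on scaffold_21 and was listed by a 5′UTR, although the gene's name belongs to chromosome 19. Glyma.U036800, of glycolysis and gluconeogenesis under K00001 (alcohol dehydrogenase), had 0.312% (0.174 to 0.558) against 27.7% (26.1 to 29.3) over exon, intron and 3′UTR, a fall of 27.4 percentage points in NJCMS5A relative to NJCMS5B.

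**Figure D5:**
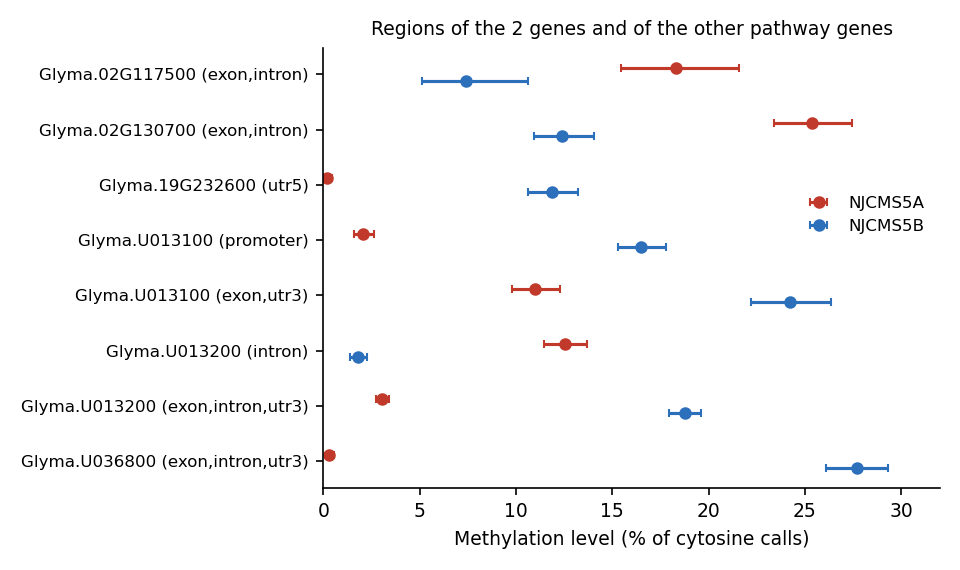
Methylation level (x axis, percent of cytosine calls, with 95% Wilson intervals) in NJCMS5A (red) and NJCMS5B (blue) of the DMRs of the 2 carboxylase genes and of the 4 other pathway genes, each named with the regions its DMR overlapped. Red lies to the right of blue in the 2 carboxylase genes and in the intron DMR of Glyma.U013200, and to the left in the other 5 DMRs.

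The pair of levels in the libraries was compared with that of the other pairs of gene and DMR on chromosomes, as the distance in percentage points over the 2 libraries. Nearest to Glyma.02G117500 were Glyma.04G136500 (17.8% in NJCMS5A and 7.15% in NJCMS5B, a distance of 0.620 percentage points), Glyma.16G081800 (18.8% and 7.96%, 0.723) and Glyma.01G084500 (18.6% and 8.07%, 0.742). Glyma.16G081800 stood under triglyceride lipase activity in the GO table. Nearest to Glyma.02G130700 were Glyma.19G069700 (26.2% and 13.0%, 1.04), under microtubule motor activity, Glyma.03G264900 (28.8% and 14.1%, 3.87) and Glyma.04G257000 (21.3% and 9.20%, 5.15), under DNA binding. The 2 carboxylase genes were 8.65 percentage points from each other, so each had other genes closer to it in level. Glyma.19G069700 rested on 18 sites and Glyma.03G264900 on 25, and their intervals of 20.05 to 33.6% and 23.8 to 34.5% in NJCMS5A include the level of Glyma.02G130700. Glyma.03G264900 also carried another DMR, over exon and intron, that was lower in NJCMS5A (3.70% against 24.4%).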

How the data were processed

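Clean reads of the NJCMS5A and NJCMS5B libraries were aligned by the authors to the Williams 82 genome with Bismark (version 0.12.5), and DMRs were called with swDMR (window 1000 bp, step 100 bp, FDR 0.05, coverage setting 5). Gene names carry the annotation Wm82.a2.v1, and coordinates are those of the deposited tables. The deposited level is a fraction, the methylated share of the calls of a DMR. The deposited depth is a coverage signal, the mean number of calls per site, not normalized between libraries. Authors' columns of ratio, difference and p-values were not used.

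Level times depth times sites was a whole number (tolerance 1e-06) in every DMR, which gave the calls and leaves no sign of a non-conversion correction in these levels. Wilson intervals were computed for levels, Newcombe intervals for differences and delta-method intervals for ratios, all at 95%, with scipy 1.17.1, numpy 2.4.6 and pandas 2.3.3 under Python 3.11.15 (plots with matplotlib 3.10.9). Their coverage was checked on simulated calls that were independent and deeper than those of the 2 genes. That check does not extend to calls that share a read. No test was run, since the contrast had chosen the genes and each line had 1 library. The depth was 6.88 to 12.1 calls per site in the 2 genes. Genes named besides these are the DMGs of the GO and KEGG lists, the nearest DMRs on chromosome 2 and the 3 DMGs nearest in level to each gene; the other genes of the class over exon and intron alone, and the fourth higher DMR, were picked once their values had been seen. The 2 genes and the lists were chosen with earlier results of these data known. Of the DMG names, 0 matched the RefSeq gene table, so no sequence or RefSeq name is given. Alternatives were calls scaled to 1 per site, an unconverted share of 0.01, and minimums of depth, sites and difference.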

Additional observations from a re-analysis of the deposited data

How the results depend on the processing

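The alternatives for the 2 genes were calls scaled to 1 per site, an unconverted share of 0.01 in both libraries or in NJCMS5A alone and, chosen after seeing the data, both libraries scaled to the lower depth. Scaling keeps each level apart from rounding and the unconverted share moves it little, so none of these could turn the direction, and they do not bear on the unequal depth. The difference ranged from 9.80 to 11.02 percentage points in Glyma.02G117500 and from 12.2 to 13.1 in Glyma.02G130700. With the unconverted share in NJCMS5A alone, the level ratio of Glyma.02G130700 was 1.99, under the smallest ratio of 2 in the list. That setting runs against the rates in the paper, which reported a higher conversion rate for NJCMS5A than for NJCMS5B. The reported rates leave an unconverted share under 0.01 in both libraries. The ratio of the level ratios ranged from 1.10 to 1.26. Requiring 10 calls per site in each library leaves neither DMR, as their lower depths were 6.88 and 9.86, so that setting gave no value for them. On chromosome 2, the share of higher DMRs was 16.7% (1 of 6) with a depth of at least 10, 27.3% (3 of 11) with at least 50 sites, 33.3% (1 of 3) with a difference of at least 12 percentage points and 15.4% (2 of 13) without the 2 genes, the last also chosen after seeing the data. Of the other pathway genes, 1 had a higher DMR, and 0 did with DMRs on chromosomes alone, where none of the 4 has a DMR. No paired analysis was possible because each line had 1 library. Glyma.02G117500 is limited by its 51 sites and its depth of 6.88 in NJCMS5B, and both genes by 1 library per line.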
